A study of Mus musculus with 6 samples.

Results

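The 5 genes *Myh1*, *Myh2*, *Myh3*, *Myh4* and *Myh8* encode the myosin heavy chains of fast and developing skeletal muscle. They are described here in single-cell RNA-seq of the mouse tibialis anterior muscle (TAM), by diet, by time after injury and by the kind of cell that held them. The members were taken by gene symbol, and all 5 were among the 12436 genes listed for each library. There was 1 library for each of 6 conditions, made from cells pooled from 3 male mice: control and hypothyroid, each uninjured (day 0) and at 5 and 14 days after injury (dpi). Hypothyroid mice ate an iodine-deficient diet with propylthiouracil, a blocker of thyroid hormone synthesis, at 0.15% by weight, and control mice ate a matched diet. Injury was made with cardiotoxin, a toxin that destroys muscle fibers and spares their stem cells, 3 weeks after the diets began. All mice were 3 to 5 months old and carried the allele Gt(ROSA)26Sor<tm1(Fucci2aR)Jkn on a B6;129 background, a cell cycle reporter that Cre recombinase turns on, and per the methods the mice used for sequencing had no Cre. With 1 pooled library per condition, nothing below is a test of diet or of time. Every interval is a 95% interval that covers counting error only and leaves out the variation between mice.

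The files held more columns than the libraries used here. In each file barcodes ran in alphabetical order and, in 5 of the 6, then started again, and only the first run of each was used, 11207 cells in all. Of the 9062 columns that followed, 1680 were cells that also stood in the first run of another file. All 1152 later columns of the uninjured control file were cells of the hypothyroid 14 dpi file, and all 528 later columns of the uninjured hypothyroid file were cells of the control 5 dpi file. No file allowed a check that the cells of a first run come from the condition named on its label. Between the first runs of different libraries, 12 barcodes were shared, and 2 of the cells with such a barcode were among the myofiber-gated cells described below.

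Myosin heavy chain is the motor of the thick filament. Heavy chains pair through their tails, carry light chains at the neck, and set how fast a fiber shortens and how much ATP it uses. Adult limb muscle has a slow form, *Myh7*, and fast forms: *Myh4* (type IIB, the fastest), *Myh1* (type IIX) and *Myh2* (type IIA, of oxidative fast fibers). *Myh3* (embryonic) and *Myh8* (perinatal) are made in fetal and newborn muscle, and again for a time in adult fibers that regenerate. Thyroid hormone is known to favor the fast adult forms over the slow and developmental ones. The mouse TAM is a fast muscle, rich in type IIB fibers. *Myh7* was not among the genes listed for the libraries, so it is not analysed here.

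The members lie side by side on the plus strand of chromosome 11. In mm39, the build of the files, they follow each other in the order *Myh3* (ENSMUSG00000020908.15, 66969126 to 66993118), *Myh2* (ENSMUSG00000033196.18, 67061853 to 67088344), *Myh1* (ENSMUSG00000056328.15, 67090878 to 67115402), *Myh4* (ENSMUSG00000057003.13, 67128855 to 67151273) and *Myh8* (ENSMUSG00000055775.17, 67167950 to 67199461). The cluster spans 230.3 kb. A gap of 68.7 kb separates the embryonic gene from the other 4, which stand 2.53, 13.5 and 16.7 kb apart.

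The promoter windows are shown because they set the embryonic gene apart from its neighbors. Each runs from 250 bases before to 50 bases after the RefSeq start, 5′ to 3′ on the plus strand. The sequences are those of RefSeq's promoter table for GRCm38.p6, all 5 members were found in it, and each window occurred once on chromosome 11 of GRCm39 (mm39), from which the coordinates come. Capitals mark stretches of at least 12 bases that occur letter for letter in the window of another member, and the letters TATAAAAG.
Myh3, chr11:66968876-66969175: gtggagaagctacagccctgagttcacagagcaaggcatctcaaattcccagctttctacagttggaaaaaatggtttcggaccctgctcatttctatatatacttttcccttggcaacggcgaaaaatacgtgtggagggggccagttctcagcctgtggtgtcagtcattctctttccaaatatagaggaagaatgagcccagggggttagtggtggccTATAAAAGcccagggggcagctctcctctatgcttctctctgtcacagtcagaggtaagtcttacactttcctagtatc
Myh2, chr11:67061603-67061902: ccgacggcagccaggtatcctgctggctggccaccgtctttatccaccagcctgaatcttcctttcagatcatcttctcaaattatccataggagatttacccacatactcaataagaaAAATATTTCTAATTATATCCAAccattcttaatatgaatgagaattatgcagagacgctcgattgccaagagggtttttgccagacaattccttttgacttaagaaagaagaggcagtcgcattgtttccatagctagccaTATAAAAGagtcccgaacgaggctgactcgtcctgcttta
Myh1, chr11:67090678-67090977: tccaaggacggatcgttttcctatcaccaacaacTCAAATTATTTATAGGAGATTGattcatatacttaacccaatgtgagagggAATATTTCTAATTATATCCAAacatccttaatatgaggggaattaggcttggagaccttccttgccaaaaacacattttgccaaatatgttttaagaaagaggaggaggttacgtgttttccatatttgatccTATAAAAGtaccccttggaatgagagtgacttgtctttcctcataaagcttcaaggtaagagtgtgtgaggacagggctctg
Myh4, chr11:67128388-67128687: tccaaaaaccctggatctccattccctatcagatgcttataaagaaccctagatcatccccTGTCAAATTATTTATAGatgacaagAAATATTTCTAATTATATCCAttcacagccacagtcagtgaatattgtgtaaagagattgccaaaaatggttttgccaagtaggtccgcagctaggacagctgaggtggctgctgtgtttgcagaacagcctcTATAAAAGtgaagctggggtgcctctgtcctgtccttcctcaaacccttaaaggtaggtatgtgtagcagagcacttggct
Myh8, chr11:67167700-67167999: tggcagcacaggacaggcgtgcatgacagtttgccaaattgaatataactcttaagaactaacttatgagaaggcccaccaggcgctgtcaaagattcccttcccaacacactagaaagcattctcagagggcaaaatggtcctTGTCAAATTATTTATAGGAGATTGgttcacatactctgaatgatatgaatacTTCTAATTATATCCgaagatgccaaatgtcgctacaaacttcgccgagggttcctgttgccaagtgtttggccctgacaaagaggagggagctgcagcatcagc

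The *Myh2*, *Myh1*, *Myh4* and *Myh8* windows shared the 14 letters TTCTAATTATATCC, and these 4 were the only ones of the 27025 mouse windows in the table that held them on either strand. The letters began 125, 160, 158 and 54 bases before the RefSeq start of *Myh2*, *Myh1*, *Myh4* and *Myh8*. *Myh1*, *Myh4* and *Myh8* also shared TCAAATTATTTATAG, which 3 windows of the table held. The longest stretch shared by a pair was the 22 letters TCAAATTATTTATAGGAGATTG in *Myh1* and *Myh8*. The *Myh3* window shared no stretch of 12 bases with any other member.

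TATAAAAG, which holds the letters of a TATA box, was in 497 of the 27025 windows (1.84%) and in 4 of the 5 members. It began 29, 32 and 31 bases before the RefSeq start of *Myh3*, *Myh1* and *Myh4* and 10 bases after that of *Myh2*, and the *Myh8* window did not hold it. The RefSeq start differed from the start in the files for *Myh1*, where it lay 50 bases downstream, and for *Myh4*, where it lay 217 bases upstream. AGGTCA, letters found in the binding sites of nuclear hormone receptors, was in 16% of all windows and in 0 of the 5. The E-box CANNTG, bound by the MyoD family among others, was in 72.1% of all windows and in those of *Myh3*, *Myh4* and *Myh8*. A match is a match of letters only, and none says nothing of sites outside the window.

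The libraries captured the 3′ ends of transcripts, where the members differ most. In the GENCODE M39 transcripts compared, 14.6% to 19.4% of all runs of 60 bases in *Myh1*, *Myh2*, *Myh4* and *Myh8* also occurred in another member, as did 1.84% of those of *Myh3*. In the last 500 bases 0 of 441 runs were shared for *Myh1*, *Myh2*, *Myh3* and *Myh8*, and 24 of 441 (5.44%) for *Myh4*. Since each unique molecular identifier (UMI) stands for 1 captured 3′ end, levels were compared between members as UMIs per 1000000 (CPM), with no scaling for length. *Myhas*, an antisense gene at 67102082 to 67128400, overlaps the end of *Myh1*. Whether counting used the strand is not given in the sources used here, so reads from that overlap cannot be told apart. *Myhas* had 59, 16 and 127 UMIs in the control libraries and 46, 2 and 8 UMIs in the hypothyroid libraries (uninjured, 5 and 14 dpi).

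Libraries held 528 to 3294 cells and 2283740 to 23496509 UMIs, with medians of 3634 to 8055 UMIs per cell. Cells were assigned by markers that included no myosin heavy chain. A cell was called myofiber-gated when *Acta1*, *Ckm*, *Ttn*, *Cox6a2*, *Eno3* and *Des* made up at least 5% of its UMIs with at least 3 of them present. This gave 39, 6 and 76 cells in the control libraries and 70, 5 and 17 in the hypothyroid libraries, with medians of 777 to 2957 UMIs. In these cells the 6 markers summed to 77967, 61665 and 73410 CPM in the control libraries and 120647, 85369 and 100685 CPM in the hypothyroid libraries, and all 6 were present in each library. In cells gated outside the muscle lineage they summed to 1470, 429 and 3225 CPM and to 5320, 110 and 1228 CPM. RNA free in the suspension can give such counts in cells that do not make it, and whether it did so here was not tested. The 6 fibro/adipogenic progenitor (FAP) markers summed to between 264 and 4577 CPM in the myofiber-gated cells. Their part in the results, and that of marker level, was not tested. Intact fibers are larger than the droplets, and which pieces of fiber the gated cells stand for is not known. The 5 dpi gates held 6 and 5 cells and are given as values only.

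Over the 6 libraries the members had 9933 UMIs. *Myh4* held 74.2% of them, *Myh1* 16.3%, *Myh3* 4.71%, *Myh8* 3.86% and *Myh2* 0.936%. Myofiber-gated cells, 213 of the 11207, held 3885 of the UMIs, and 62 cells gated as differentiating myoblasts by *Myog*, *Mymk* and *Mymx* held 1017.

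*Myh4*, the type IIB chain, was the most abundant member in the myofiber-gated cells of every library. Its level was 4564 CPM in uninjured control (95% interval 4238 to 4909, 726 UMIs) and 2426 CPM in uninjured hypothyroid muscle (2187 to 2683, 377 UMIs). It was present in 37 of 39 and 57 of 70 of these cells. The ratio of hypothyroid to control was 0.531 (0.468 to 0.603), so the control level was the higher one before injury by more than counting error. At 5 dpi the level was 2534 CPM in control (48 UMIs) and 2177 CPM in hypothyroid cells (9 UMIs), a ratio of 0.859 (0.371 to 1.77), which this depth cannot tell from 1. At 14 dpi it was 7895 CPM in control (7552 to 8250, 1987 UMIs) and 2547 CPM in hypothyroid cells (2195 to 2940, 187 UMIs), a ratio of 0.323 (0.276 to 0.375). The hypothyroid 14 dpi value rested on few cells: 9 of 17 held the transcript, and 1 of them, a cell of 756 UMIs, held 105 of the 187. Without the cell with the most *Myh4* UMIs in each library the ratio was 0.160 (0.127 to 0.200).

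The single cells show the same spread. In uninjured control cells *Myh4* ran from 0 through a median of 3695 to 22845 CPM, and in uninjured hypothyroid cells from 0 through 2192 to 12312 CPM. At 14 dpi it ran from 0 through 3988 to 375000 CPM in control and from 0 through 809 to 138889 CPM in hypothyroid cells. The ranges overlap throughout. The highest values came from cells of few UMIs: a control 14 dpi cell of 552 UMIs held 207 of *Myh4*, 18 of *Myh1* and 3 of *Myh8*, together 41.3% of its RNA.

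The *Myh4* ratio at 14 dpi was under 1 in each alternative tried, with sizes from 0.160 to 0.846. The highest value, 0.846 (0.721 to 0.987), came from cells gated on the fast troponins *Tnnt3*, *Tnni2* and *Tnnc2* in place of the 6 markers, and the uninjured ratio was then 0.709 (0.614 to 0.817).

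Over all cells, where the number of fiber cells caught weighs in as well, *Myh4* stood at 213, 29.9 and 273 CPM in the control libraries and at 282, 2.38 and 34.9 CPM in the hypothyroid libraries. The uninjured ratio was then 1.33 (1.21 to 1.46), on the other side of 1 from that in the myofiber-gated cells, which were 13.3% of the hypothyroid and 3.39% of the control cells before injury. At 5 dpi the ratio over all cells was 0.0798 (0.0594 to 0.105), and at 14 dpi 0.128 (0.116 to 0.141). Myofiber-gated cells were 2.31% of control and 1.03% of hypothyroid cells at 14 dpi. Fewer fiber cells and less transcript per cell cannot be told apart in these sums.

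**Figure D1:**
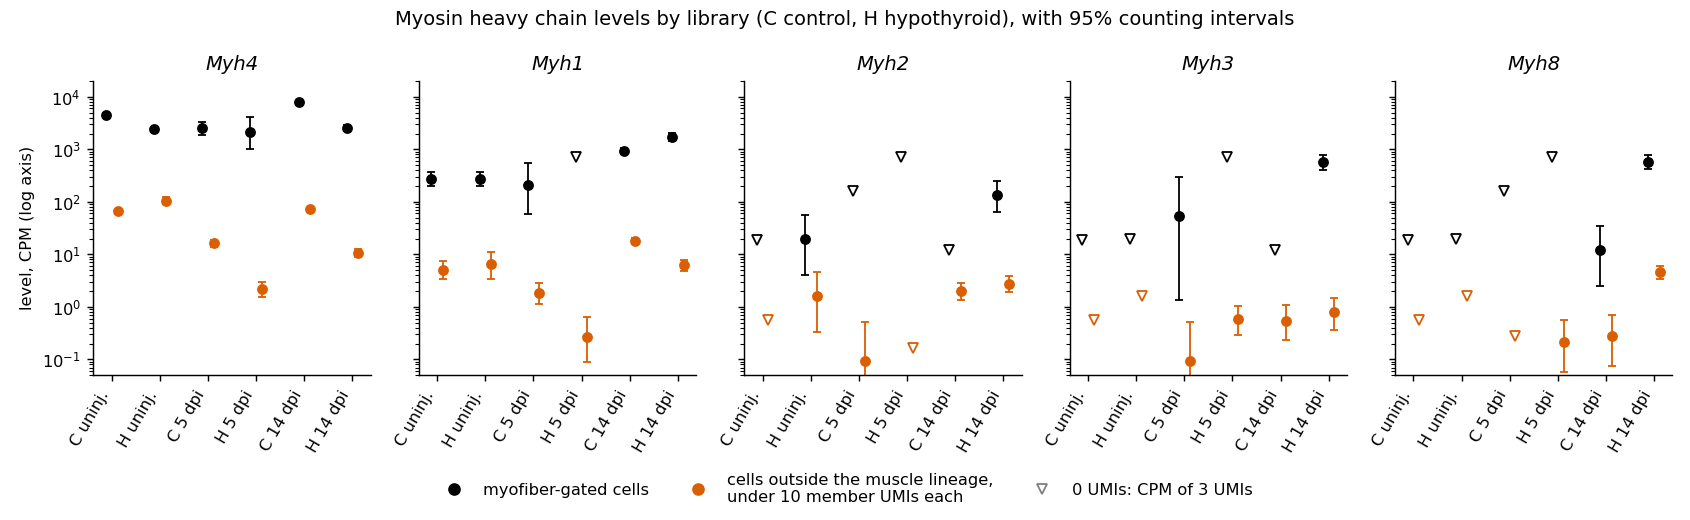
Level of each myosin heavy chain gene (CPM, log axis) in the 6 libraries, in myofiber-gated cells (black) and in cells outside the muscle lineage with under 10 member UMIs each (orange), with 95% counting intervals; open triangles stand at the level of 3 UMIs where none was counted. *Myh4* is the highest black point in each library, and *Myh3* and *Myh8* have filled black points above 500 CPM in hypothyroid 14 dpi alone.

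*Myh1*, the type IIX chain, was second in the myofiber-gated cells of every library but hypothyroid 5 dpi, where 0 UMIs were counted. Before injury it had 277 CPM in both: 44 UMIs in 10 of 39 control cells (201 to 371 CPM) and 43 UMIs in 14 of 70 hypothyroid cells (200 to 373 CPM), a ratio of 1.0 (0.641 to 1.56). That equality depended on how cells were chosen: the ratio was 2.05 (1.12 to 3.89) in cells gated on the fast troponins and 2.81 (0.473 to 114) at a gate of 10% of UMIs, where control had 1 UMI. With all columns of each file it was 0.369 (0.259 to 0.517), and the later columns of both uninjured files also stand in files of other conditions. At 5 dpi control cells had 4 UMIs (211 CPM). At 14 dpi *Myh1* had 926 CPM in control (811 to 1053, 233 UMIs, 19 of 76 cells) and 1703 CPM in hypothyroid cells (1417 to 2029, 125 UMIs, 12 of 17 cells). The 14 dpi ratio was 1.84 (1.47 to 2.30), and its size and its side of 1 moved with the cells used. A hypothyroid cell of 3047 UMIs held 91 of the 125 UMIs, and without the top cell of each library the ratio was 0.727 (0.487 to 1.06). With every cell kept and weighted equally it was 0.794. It was 4.90 (3.81 to 6.29) in cells gated on the fast troponins, 5.14 (3.86 to 6.88) in cells of 1000 or more UMIs and 10.4 (3.15 to 53.8) at the gate of 10% of UMIs. No direction is read from it. The share of cells with a *Myh1* UMI does not lean on that cell, and was 70.6% in hypothyroid and 25.0% in control cells, with medians of 2957 and 2030.5 UMIs per cell. The median cell had 205 CPM in hypothyroid 14 dpi and 0 CPM in the 3 other uninjured or 14 dpi libraries.

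Against *Myh4* alone, the part of *Myh1* in the UMIs of the pair was 5.71% (4.18 to 7.60) in uninjured control and 10.2% (7.51 to 13.5) in uninjured hypothyroid myofiber-gated cells. At 14 dpi it was 10.5% (9.25 to 11.8) in control and 40.1% (34.6 to 45.7) in hypothyroid cells. Without the cell of each library with the most *Myh1* it was 7.89% (6.78 to 9.12) in control and 15.7% (11.2 to 21.3) in hypothyroid cells, so that 1 hypothyroid cell made up most of the gap. With cells of 10 or more member UMIs left out, which takes away the few cells that dominate, it was 17.4% (11.4 to 25.0) in control and 50% (24.7 to 75.3, 16 UMIs) in hypothyroid cells at 14 dpi, and those intervals overlap narrowly.

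*Myh1* was also found in large amounts in cells that the markers put elsewhere. In hypothyroid 14 dpi, 361 of the 576 *Myh1* UMIs of the library were in 1 cell of 6981 UMIs gated as monocyte/macrophage, with 57 UMIs of *Lyz2*, a myeloid lysozyme, and myofiber markers at 3438 CPM. The same cell held 27 UMIs of *Myh3*, 16 of *Myh8*, 5 of *Myh2* and 0 of *Myh4*. In control 14 dpi the cell with the most, 108 UMIs, was gated as a differentiating myoblast and held 22 UMIs of *Myh4*. Over all cells *Myh1* had 47.6 CPM in control and 43.9 CPM in hypothyroid muscle at 14 dpi, and 41.1 and 16.4 CPM without those 2 cells. Over all cells of the uninjured libraries it had 12.1 and 24.1 CPM, a ratio of 1.98 (1.37 to 2.86).

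*Myh2*, the type IIA chain, was scarce. It had 0, 0 and 0 UMIs in the myofiber-gated cells of the control libraries, which allows up to 18.9 CPM before injury, 158 CPM at 5 dpi and 11.9 CPM at 14 dpi (the level of 3 UMIs). In hypothyroid cells it had 3 UMIs before injury (19.3 CPM), 0 at 5 dpi and 10 UMIs in 4 of 17 cells at 14 dpi (136 CPM, 65.3 to 251). That is 11.4 times the level of 3 UMIs in control, and with counting error on both sides at least 7.68-fold higher. Of those 10 UMIs, 5 were in 1 cell. Over all cells *Myh2* had 2.25 CPM in control (37 UMIs in 33 cells) and 3.66 CPM in hypothyroid 14 dpi (48 UMIs in 27 cells), a ratio of 1.63 (1.04 to 2.57). The uninjured control library had 0 UMIs of it in 1152 cells, and the uninjured hypothyroid library had 6.

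The developmental chains *Myh3* and *Myh8* had 0 UMIs in either uninjured library. At 5 dpi the control library had 279 UMIs of the pair, and 4 differentiating myoblasts held 269 of them (96.4%). The hypothyroid library had 32 UMIs of the pair at 5 dpi, with no cell of 10 or more. At 14 dpi the order turned: control had 20 UMIs, again with no cell of 10 or more, and hypothyroid muscle had 520, of which 4 cells held 416 (80%). Over all cells *Myh3* stood at 12.8 CPM in control against 1.19 CPM in hypothyroid muscle at 5 dpi, a ratio of 0.0929 (0.0602 to 0.138), and at 0.547 against 17.8 CPM at 14 dpi, a ratio of 32.5 (16.8 to 71.96). *Myh8* stood at 5.25 against 0.170 CPM at 5 dpi, a ratio of 0.0324 (0.00863 to 0.0863), and at 0.668 against 21.9 CPM at 14 dpi, a ratio of 32.7 (18.0 to 66.3). Single cells weighed heavily in these ratios, most of all for *Myh8* at 5 dpi, where 1 control cell held 76 of the 81 UMIs. Without the cell of each library with the most UMIs, *Myh8* at 5 dpi had 5 UMIs in control and 3 in hypothyroid muscle, 0.325 against 0.128 CPM, a ratio of 0.394 (0.0611 to 2.02) that this depth cannot tell from 1. *Myh3* at 5 dpi was then at 5.51 against 0.809 CPM, a ratio of 0.147 (0.0842 to 0.243). At 14 dpi the levels without those cells were 0.425 against 6.72 CPM for *Myh3*, a ratio of 15.8 (7.36 to 40.5), and 0.486 against 11.9 CPM for *Myh8*, a ratio of 24.5 (12.1 to 57.8). These *Myh3* ratios still rested on few cells. Of the 85 UMIs left in control 5 dpi, single myoblasts held 45, 17 and 14. Of the 88 left in hypothyroid 14 dpi, single cells held 41 and 27.

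The 4 control 5 dpi cells differed in stage markers. A cell of 29214 UMIs held 45 UMIs of *Myh3*, 76 of *Myh8* and 85 of *Myh1* with 2 UMIs of *Myog*, the transcription factor that drives differentiation, and 282 of *Myl4*, the embryonic and atrial light chain. The other 3 held 113, 17 and 14 UMIs of *Myh3* with 3, 1 and 0 of *Myh8*. They had 74, 140 and 108 UMIs of *Myog* and 28, 6 and 5 of *Myl4*. So *Myh8* and *Myh1* were high in the cell that was low in *Myog*, and the 3 cells that were high in it held *Myh3* with little or no *Myh8*. These 4 cells are too few for a test.

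The 4 hypothyroid 14 dpi cells were of 4 gates. A differentiating myoblast of 25120 UMIs held 145 UMIs of *Myh3* and 131 of *Myh8* with 30 of *Myog* and 0 of *Myh4*. A myofiber-gated cell of 11821 UMIs held 41 of *Myh3* and 39 of *Myh8* with 0 of *Myog*, 38 of *Myl4* and 68 of *Mybpc1*, the slow myosin binding protein C. The monocyte/macrophage-gated cell named above held 27 and 16. A lymphoid-gated cell of 3809 UMIs held 23 UMIs of *Myh4* and 17 of *Myh8* with none of *Myh3*, and had 4, 3 and 2 UMIs of *Cd3d*, *Cd3e* and *Cd3g*, which belong to the T cell receptor complex. Droplets with material of more than 1 cell were not removed here, and their part in the last 2 cells was not tested.

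In the myofiber-gated cells at 14 dpi, *Myh3* had 42 UMIs in hypothyroid muscle, 41 of them in 1 cell, and 0 in control. That is 48.0 times the level of 3 UMIs in control, with a lower bound from counting error of 37.3-fold. The bound treats the UMIs of that cell as independent, and without the cell 1 UMI is left, which bounds nothing. *Myh8* had 43 UMIs, 39 of them in the same cell, against 3, a ratio of 49.1 (15.7 to 248). That ratio was 3.10 with each cell weighted equally and 114 (47.9 to 355) at a gate of 30000 CPM. Among differentiating myoblasts *Myh3* had 697 CPM in control (602 to 802, 193 UMIs, 7 of 19 cells) and 23.0 CPM in hypothyroid muscle (11.5 to 41.2, 11 UMIs, 2 of 25 cells) at 5 dpi. Without the top cell of each library *Myh3* was at 304 against 4.27 CPM, and of the 80 control UMIs left single cells held 45, 17 and 14. *Myh8* had 80 UMIs (289 CPM), 76 of them in 1 cell, and 0 UMIs in the same cells. At 14 dpi, with 9 cells in each library, *Myh3* had 0 UMIs in control and 154 in hypothyroid myoblasts (1029 CPM, 145 in 1 cell), and *Myh4* had 214 UMIs in 6 control cells (1726 CPM) and 2 UMIs in 2 hypothyroid cells (13.4 CPM). The 9 cells a library are few, but the *Myh4* difference did not rest on 1 of them: the top control cell held 88 of the 214 UMIs.

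**Figure D2:**
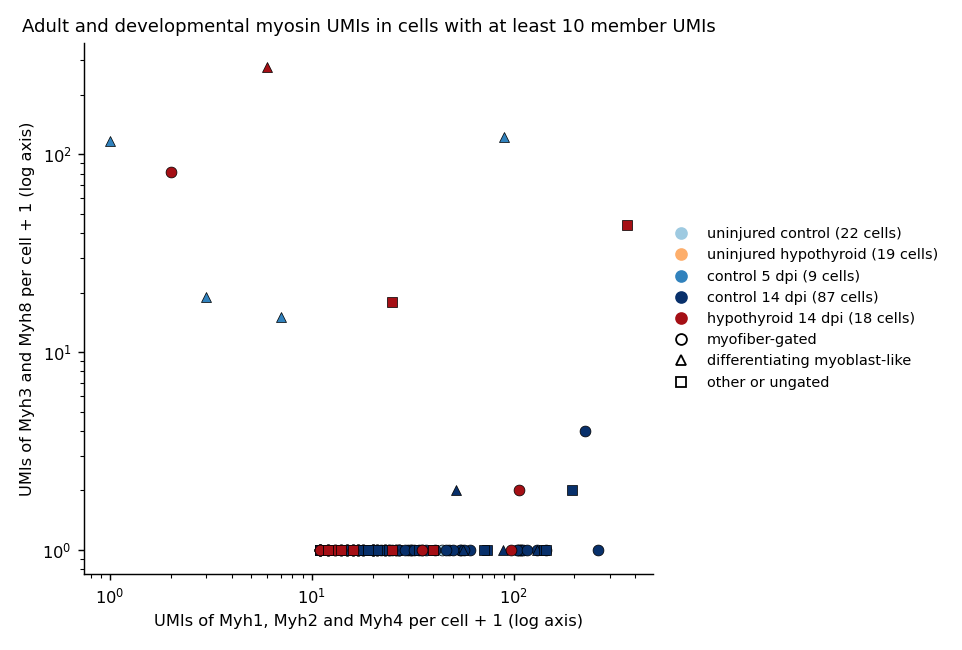
Cells with at least 10 member UMIs, by UMIs of the adult chains *Myh1*, *Myh2* and *Myh4* (x axis) and of the developmental chains *Myh3* and *Myh8* (y axis), both plus 1 on log axes; color is the library and shape the gate. The 8 cells high on the y axis are 4 of control 5 dpi and 4 of hypothyroid 14 dpi, and the rest lie along the bottom.

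*Myh4* made up most of the member UMIs in the myofiber-gated cells of every library but hypothyroid 14 dpi. Its share was 94.3% in uninjured control (92.4 to 95.8), 89.1% in uninjured hypothyroid (85.8 to 91.9), 90.6% in control 5 dpi (79.3 to 96.9) and 89.4% in control 14 dpi (88.0 to 90.6). In hypothyroid 14 dpi it was 45.9% (41.0 to 50.9), with *Myh1* at 30.7%, *Myh8* at 10.6%, *Myh3* at 10.3% and *Myh2* at 2.46%. This was the lowest *Myh4* share of the 6 libraries. Its size moved with the gate and with single cells: it was 27.2% without the cell with the most *Myh4*, 29.3% at a gate of 30000 CPM, 61.1% in cells gated on the fast troponins and 81.1% in the 6 cells that passed the gate at 10% of UMIs, where control 14 dpi had 98.9%. The shares of the other chains there rested on single cells. Without the cell with the most of each, *Myh1* was 10.9% (7.69 to 14.9), against 7.88% (6.77 to 9.11) in control, *Myh8* was 1.23% and *Myh3* 0.307%. In cells gated on the fast troponins *Myh1* was 36.5%, *Myh3* 0.338% and *Myh8* 0%, and at the gate of 30000 CPM they were 18.6%, 25.6% and 24.4%.

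**Figure D3:**
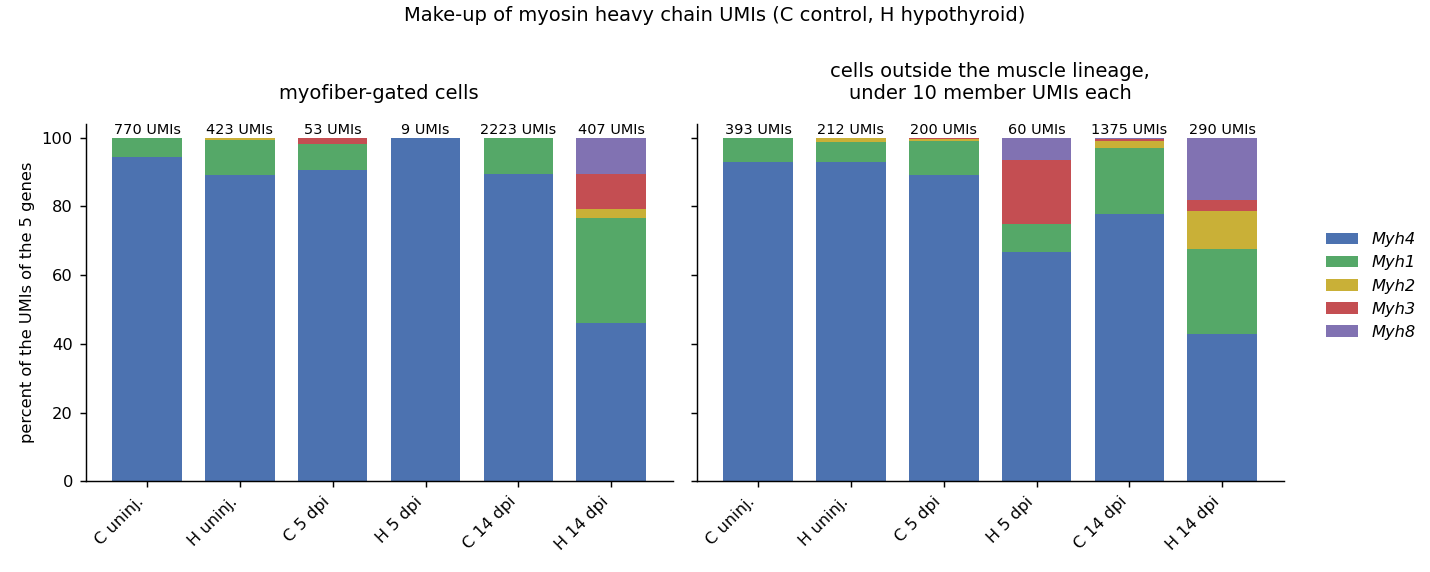
Share of each gene among the UMIs of the 5 genes (percent), by library, in myofiber-gated cells (left) and in cells outside the muscle lineage with under 10 member UMIs each (right), with the UMI total above each bar. Hypothyroid 14 dpi has the lowest *Myh4* share on both sides, 45.9% and 42.8%, and the widest mix of the other genes.

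Most single fiber cells were dominated by 1 heavy chain. Among myofiber-gated cells with at least 10 member UMIs, *Myh4* held at least 80% of the member UMIs in 13 of 15 cells of uninjured control (86.7%, 59.5 to 98.3) and in 13 of 15 of uninjured hypothyroid muscle. At 14 dpi it did so in 34 of 43 control cells (79.1%, 64.0 to 89.96) and 5 of 9 hypothyroid cells (55.6%, 21.2 to 86.3), intervals that overlap. *Myh1* held at least 80% in 1, 1, 3 and 3 of these cells. In all cells of the 6 libraries, none was led in this way by *Myh2* or *Myh8*, and 2, both control 5 dpi myoblasts, were led by *Myh3*. Among cells of any gate with at least 10 member UMIs, those without a leading member most often held the neighbors *Myh4* and *Myh1*. In control 14 dpi all 9 such cells held *Myh4* and *Myh1* as their top pair, for example 75 and 40 UMIs in 1 cell and 37 and 66 UMIs in another. In hypothyroid 14 dpi the 4 such cells held *Myh3* and *Myh8* (2 cells), *Myh4* and *Myh1* (1 cell) and *Myh4* and *Myh8* (1 cell). The first 2 were gated as a differentiating myoblast and as myofiber, and the last as lymphoid. Whether a mixed cell is 1 cell or a droplet with material of several was not tested.

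**Figure D4:**
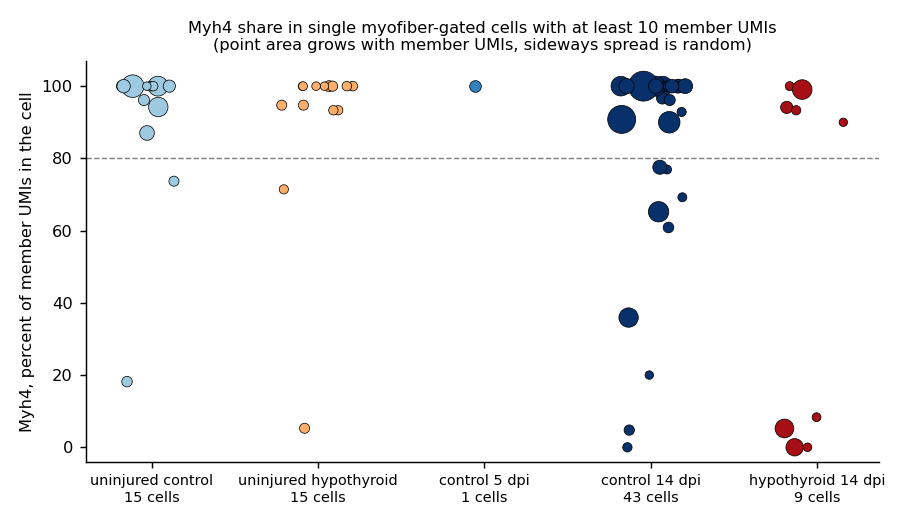
Share of *Myh4* among the member UMIs of single myofiber-gated cells with at least 10 of them (percent), by library, with point area growing with the member UMIs and the dashed line at 80%. In the uninjured libraries 13 of 15 points each lie above the line, in control 14 dpi 34 of 43, and in hypothyroid 14 dpi 5 of 9.

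Member UMIs were spread thinly over cells that are not muscle. Outside the muscle lineage, 23.0%, 8.59% and 31.2% of control cells and 34.1%, 2.87% and 14.1% of hypothyroid cells (uninjured, 5 and 14 dpi) had a UMI of a member, at medians of 4025 to 8874 UMIs per cell. The deepest library, hypothyroid 5 dpi, had the lowest share. Such counts are read as background RNA and not as expression, a reading that was not tested. They describe the myosins of the suspension without a gate for fibers, in 398 to 2845 cells a library. Those cells share 1 suspension and are not replicates, and the shares rest on 60 to 1375 member UMIs. Whether RNA from the few cells rich in members made up these counts was not tested. Cells with 10 or more member UMIs, 0 to 31 per library, were left out.

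In that background *Myh4* was 92.9% of member UMIs in both uninjured libraries (of 393 control and 212 hypothyroid UMIs) and 89% (83.8 to 93.0, of 200 UMIs) in control 5 dpi. In hypothyroid 5 dpi it was 66.7% (53.3 to 78.3, of 60 UMIs), below the control of that day by more than counting error. At 14 dpi it was 77.7% in control (75.4 to 79.8, of 1375 UMIs) and 42.8% in hypothyroid muscle (36.99 to 48.7, of 290 UMIs). *Myh8* was 0.291% in control (4 UMIs) and 18.3% in hypothyroid 14 dpi (14.0 to 23.2), where 53 UMIs lay in 47 cells with at most 3 in any. Its level was 0.273 against 4.60 CPM, a ratio of 16.8 (6.20 to 64.0), so the 14 dpi difference in *Myh8* was present without the cells that hold most of its UMIs. *Myh3* did not differ there beyond counting error, with 8 UMIs in control and 9 in hypothyroid muscle, a ratio of 1.43 (0.489 to 4.26). *Myh2* was 2.11% in control (29 UMIs) and 11.03% in hypothyroid 14 dpi (32 UMIs), while its level differed by a ratio of 1.40 (0.821 to 2.40) that this depth cannot tell from 1.

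In the background the level of *Myh4* was higher in hypothyroid than in control muscle before injury and lower at both later times. The ratio was 1.58 (1.32 to 1.88) before injury, 0.132 (0.0911 to 0.187) at 5 dpi and 0.147 (0.121 to 0.178) at 14 dpi. For *Myh1* the ratio was 1.26 (0.581 to 2.55), 0.147 (0.0430 to 0.403) and 0.344 (0.261 to 0.448). The myofiber markers in the same kind of cells moved along, as given above, from 1470 against 5320 CPM before injury to 3225 against 1228 CPM at 14 dpi. In hypothyroid 5 dpi *Myh3* was 18.3% of 60 member UMIs, 11 UMIs in 11 cells, against 1 UMI in control.

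The genes that work with the members were counted by lists, in the myofiber-gated cells, as at least 2-fold higher or lower in hypothyroid than in control cells. Genes with at least 20 UMIs in both libraries together were counted, with no test, since each side is 1 library. Of all 1823 such genes before injury, 3.73% were called higher and 11.8% lower, with a median ratio of 0.890. At 14 dpi it was 8.56% higher and 18.9% lower of 1753, with a median ratio of 0.935. Of the members, 2 had enough UMIs before injury and 0 were called. At 14 dpi 4 had enough, *Myh3* and *Myh8* were called higher and *Myh4* lower. At 5 dpi, with 11 cells, 185 genes had enough, 14.1% were called higher and 20% lower, and *Myh4*, the only member among them, was not called.

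The fast partners of the thick filament stayed within 2-fold. Before injury 0 of 4 were called, with a median ratio of 1.18, and at 14 dpi 0 of 5, with a median of 0.662. At 14 dpi the fast light chains *Mylpf* and *Myl1* had ratios of 0.662 (0.634 to 0.692) and 0.641 (0.606 to 0.676), and fast myosin binding protein C, *Mybpc2*, 0.587 (0.447 to 0.761). Each was nearer to 1 than *Myh4*, at 0.323, at this gate and with UMIs summed. In the alternatives the *Myh4* ratio ran from 0.160 to 0.846, and no values of these partners are given there. The contrast is therefore shown for this setting only. Before injury *Mylpf* was at 1.002 (0.964 to 1.04) and *Mybpc2* at 1.35 (1.09 to 1.68), where *Myh4* was at 0.531. The 3 fast troponins, the calcium switch of the thin filament, had 0 called on either day and medians of 1.11 and 0.725. None of the 4 slow troponin genes had enough UMIs.

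The developmental or slow partners with enough UMIs stood on the same side of 1 as *Myh3* and *Myh8* at 14 dpi, with 2 of 2 called higher. *Mybph*, also on this list, had too few UMIs to be counted. It leaned the other way, with 1 UMI in the 17 hypothyroid cells against 17 UMIs in the 76 control cells. *Myl4* had 72 UMIs in 6 of 17 hypothyroid cells against 2 in 76 control cells, a ratio of 123 (32.9 to 1039), and 137 (23.0 to 5562) without the top cell of each library, so it did not rest on the 1 cell rich in *Myh3* and *Myh8*. *Mybpc1* was at 4.59 (3.34 to 6.33), and at 1.65 (1.02 to 2.63) without the top cells, since that cell held 68 of its 95 UMIs. Before injury *Mybpc1* alone had enough UMIs and was called lower, at 0.479 (0.297 to 0.755).

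Genes of fast fiber calcium handling and glycolysis had 0 higher and 2 lower of 8 before injury (median 0.768) and 0 higher and 3 lower of 8 at 14 dpi (median 0.678). *Pvalb*, the calcium buffer of fast fibers, was the lowest of the list at 14 dpi, at 0.239 (0.210 to 0.270), with 268 against 3846 UMIs. *Actn3*, the Z-disc actinin of fast fibers, was at 0.487 (0.387 to 0.606), *Ldha* at 0.637 (0.500 to 0.803) and *Atp2a1*, the fast calcium pump, at 0.898 (0.777 to 1.03). Before injury *Actn3* and *Atp2a1* were at 1.72 (1.54 to 1.92) and 1.43 (1.28 to 1.60), so not every fast fiber gene stood with *Myh4*. The other genes of the list called lower, named after their values were seen, were *Casq1*, which stores calcium, and *Gpd1* before injury, at 0.432 (0.239 to 0.754) and 0.491 (0.225 to 1.01), and *Gpd1* at 14 dpi, at 0.367 (0.129 to 0.851).

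Genes of oxidative or slow fibers had 0 higher and 1 lower of 5 before injury (median 0.739) and 3 higher and 1 lower of 6 at 14 dpi (median 2.33). *Car3*, the carbonic anhydrase of slow fibers, was at 3.28 (2.73 to 3.93) at 14 dpi and at 3.44 (2.77 to 4.26) without the top cells. *Fabp3*, a fatty acid carrier, was at 2.84 (2.26 to 3.58), or 1.69 (1.23 to 2.30) without them. *Mb*, the oxygen store myoglobin, was at 1.81 (1.57 to 2.08), or 0.919 (0.732 to 1.14) without them. *Actn2*, the Z-disc actinin of all fiber types, was the third called higher, at 6.39 (4.23 to 9.81), and is named after its value was seen, as is *Tpm3*, the slow tropomyosin, which was called lower with 3 against 24 UMIs. For these genes, and for other partner genes shown without a value that leaves out the top cells, the weight of single cells is not given. Before injury *Mb* was at 0.523 (0.442 to 0.617) and *Ckmt2*, the mitochondrial creatine kinase, at 0.450 (0.317 to 0.631).

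Of the genes listed for myosin folding and assembly, mostly chaperones and ligases, 0 of 8 were called before injury (median 0.844). At 14 dpi 3 higher and 1 lower of 7 were called (median 0.857). The small heat shock proteins *Hspb1* and *Cryab* were at 3.48 (2.47 to 4.90) and 2.97 (2.43 to 3.64), or 1.70 (1.04 to 2.71) and 2.19 (1.72 to 2.79) without the top cells. The others called, named after their values were seen, were *Cavin4* with 20 against 21 UMIs, at 3.27 (1.68 to 6.33), and *Smyd1*, a myosin chaperone partner, with 2 against 21 UMIs. Of the regulators of fiber type, 0 higher and 2 lower of 10 were called before injury (median 0.752) and 0 higher and 2 lower of 8 at 14 dpi (median 0.748). *Nfix* was at 0.361 (0.199 to 0.629) before injury, and *Maf*, a large MAF factor of type IIB fibers, at 0.440 (0.203 to 0.852) at 14 dpi. The others called lower, named after their values were seen, were *Sox6*, which holds back slow fiber genes, before injury, at 0.292 (0.115 to 0.658), and *Tbx15* at 14 dpi, with 2 against 19 UMIs. *Mef2c* was at 0.512 (0.381 to 0.682) before injury and 1.17 (0.881 to 1.54) at 14 dpi. Of the fusion and regeneration genes, 1 was counted before injury and not called, and 2 of 2 were called lower at 14 dpi: *Actc1*, the cardiac actin of immature fibers, at 0.205 (0.0967 to 0.387), and *Cdkn1c*, a cell cycle inhibitor of differentiating myoblasts, with 0 against 21 UMIs. So, summed over the myofiber-gated cells at 14 dpi, *Actc1* was lower and *Myl4* higher in hypothyroid than in control muscle. Of 9 other heavy chain genes sought, 3 were among the genes listed for the libraries: *Myh9*, *Myh10* and *Myh11*. Of these only *Myh9*, a non-muscle myosin, had enough UMIs, at 14 dpi, with 1 against 19 UMIs. The slow *Myh7* was not listed, so its level cannot be read here.

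**Figure D5:**
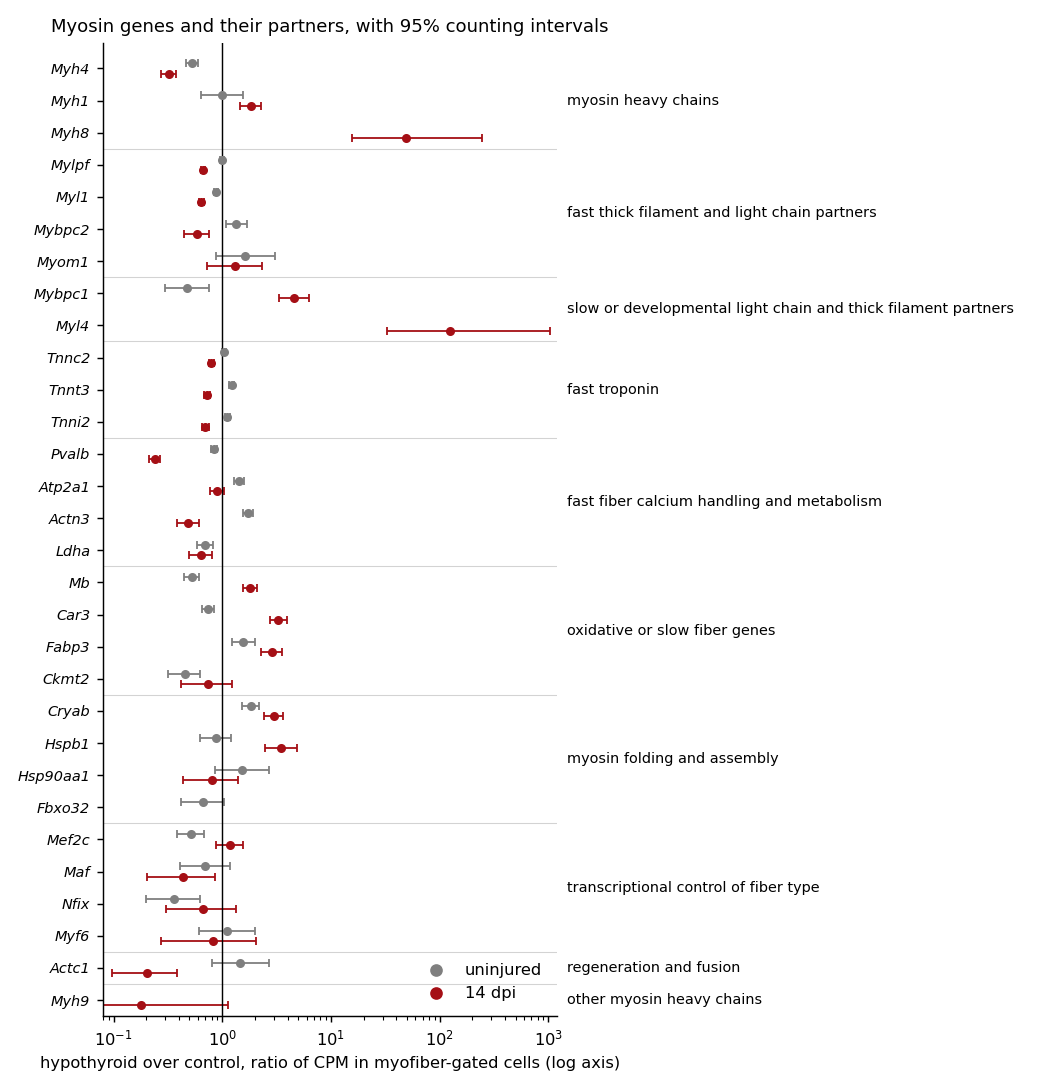
Ratio of hypothyroid to control CPM in myofiber-gated cells (log axis) for the myosin genes and named partner genes, grouped by list, uninjured (grey) and at 14 dpi (red), with 95% counting intervals; genes with 0 UMIs in control or under 20 UMIs are not drawn. Of the genes drawn, which leave out *Actn2*, *Myl4*, *Myh8* and *Mybpc1* lie farthest right at 14 dpi, and *Myh4*, *Pvalb* and *Actc1* lie farthest left with *Myh9*, which rests on 20 UMIs.

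Over the 213 myofiber-gated cells, with the mean of each library taken out, the genes most like *Myh4* in log2(CPM + 1) were *Pvalb* (Pearson's r = 0.52), *Mybpc2* (0.43), *Ckm* (0.41), *Actn3* (0.35) and *Ttn* (0.29), of 2380 genes found in at least 10% of the cells. Those most like *Myh1* were *Fhl1* (0.44), *Mb* (0.35), *Actn2* (0.35), *Got1* (0.35) and *Fabp3* (0.29). The lists share no gene. *Ckm* and *Ttn* were part of the gate. The r of *Myh4* with *Myh1* was -0.12, with both present in 43 cells, and that of *Myh3* with *Myh8* was 0.33, with both present in 1 cell. The r with the log2 UMI total of the cell was -0.07 for *Myh4* and 0.04 for *Myh1*. These values are a description: cells share 6 libraries and free RNA, and are not replicates.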

How the data were processed

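Single-cell RNA-seq of TAM was analysed from 1 pooled library for each of 6 conditions. Per the methods, the authors aligned reads to mm39 with the Cell Ranger aligner, counted against GENCODE M30 in Partek Flow, removed cells by UMI total, gene number and mitochondrial share, and deposited log2(CPM + 1) per gene and cell. The methods state an upper limit of UMIs per cell that the deposited cells pass over, so its effect on the cells used here is not known. The submitters' processing notes name Partek, Cell Ranger and mm39. The deposited log2 values were turned back into UMIs, taking the most frequent value above 0 in a cell as 1 UMI. Of 39334018 values above 0, 99.934% came out whole to within 0.05 UMI (0.1% of the value above 50 UMIs).

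The first run of columns of each file was used (11207 cells) and 9062 later columns were not. A cell was myofiber-gated at 5% of UMIs in 6 markers, a limit set after seeing the data. Otherwise it was a differentiating myoblast at 2 or more UMIs of *Myog*, *Mymk* and *Mymx*, a myogenic progenitor with 2 or more progenitor genes, or the type whose markers scored highest. Doublets were not called. Levels were UMIs summed over cells, with exact Poisson intervals for CPM, conditional binomial intervals for ratios and Clopper-Pearson intervals for shares, at 95%. These cover counting error only, and with 1 library per condition no test was made. Where 0 UMIs were counted, the limit is the level of 3 UMIs over the group of cells.

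The members and lists were chosen with earlier results of these data known. Named genes were the members and the 2 to 4 genes of each list with the most UMIs. Also named were the 5 genes most correlated with *Myh1* and with *Myh4*, the members of at least 100 UMIs in the myofiber-gated cells. Alternatives changed the columns, the gate, the cell minimum, the weighting of cells and the top cell. The scripts were tested on simulated data. Python 3.11.15, numpy 2.4.6, scipy 1.17.1, pandas 2.3.3 and matplotlib 3.10.9 were used.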

Additional observations from a re-analysis of the deposited data

Results flagged for a closer look

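Over all cells the hypothyroid to control ratio of 4 members stood on different sides of 1, or at very different sizes, on different days. *Myh1* had a ratio of 1.98 before injury and 0.0267 at 5 dpi. *Myh3* had 0.0929 at 5 dpi and 32.5 at 14 dpi, and *Myh8* had 0.0324 and 32.7. Without the cell of each library with the most UMIs, *Myh8* at 5 dpi had 5 UMIs in control and 3 in hypothyroid muscle, a ratio of 0.394 (0.0611 to 2.02), so its 5 dpi value rests on 1 control cell. *Myh3* then had 0.147 at 5 dpi and 15.8 at 14 dpi, *Myh8* had 24.5 at 14 dpi, and *Myh1* had 0.0690 at 5 dpi. The *Myh3* UMIs left in control 5 dpi and in hypothyroid 14 dpi were still mostly in a few cells. *Myh4* had 1.33 before injury, 0.0798 at 5 dpi and 0.128 at 14 dpi. The difference between days was not tested, since each ratio sets 1 library against 1 other.

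Members that were at or near 0 in the first run of a file had UMIs in its later columns, which the comparisons do not use. The later columns of the uninjured control file held 34 UMIs of *Myh2*, 226 of *Myh3* and 267 of *Myh8*, where its first run held 0 of each, and these columns are cells that also stand in the hypothyroid 14 dpi file. Those of the uninjured hypothyroid file held 16 UMIs of *Myh3*, in cells that also stand in the control 5 dpi file. The later columns of the control 5 dpi file held 56 UMIs of *Myh2*, against 2 in its first run, and those of the hypothyroid 5 dpi file held 7, against 0. The condition of those later columns is not known.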

How the results depend on the processing

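No paired analysis was possible because each condition had 1 library. In the myofiber-gated cells, 43 of the values recomputed for the main results moved by less than their counting interval, 35 moved by more and 2 changed sides of 1. Those 2 were the *Myh1* ratio at 14 dpi, 0.794 as the mean of per-cell CPM and 0.727 without the top cells. The later columns of both uninjured files are cells that also stand in files of other conditions. The condition of those of control 14 dpi is not known, and hypothyroid 14 dpi has no later columns. With all columns of each file the ratios were 0.679 (*Myh4*, uninjured), 0.463 (*Myh4*, 14 dpi), 0.369 (*Myh1*, uninjured) and 2.53 (*Myh1*, 14 dpi), and the *Myh4* share in uninjured control was 75.9%. With the gate at 10% of UMIs (5, 8, 55 and 6 cells in uninjured control, control 14 dpi, uninjured hypothyroid and hypothyroid 14 dpi) the same ratios were 0.434, 0.631, 2.81 and 10.4, and *Myh4* shares were 98.4% in uninjured control, 98.9% in control 14 dpi and 81.1% in hypothyroid 14 dpi. With the gate on fast troponins they were 0.709, 0.846, 2.05 and 4.90, and the shares were 96.6% in uninjured control and 61.1% in hypothyroid 14 dpi. At 1000 or more UMIs per cell the 14 dpi ratios were 0.165 (*Myh4*) and 5.14 (*Myh1*). In alternatives chosen after seeing the data, as were the values over all cells, in myoblasts and for the *Myh1* and *Myh4* pair without a top cell, cells that also reached the score of another list were left out (*Myh4* 0.413 uninjured and 0.231 at 14 dpi, *Myh1* 1.31 at 14 dpi), or the gate was set at 30000 CPM (*Myh4* 0.257 and *Myh1* 1.38 at 14 dpi, *Myh4* share 29.3% in hypothyroid 14 dpi). With each cell weighted equally the 14 dpi ratios were 0.609 (*Myh4*) and 3.10 (*Myh8*), and *Myh4* shares were 91.3% in uninjured control, 87.8% in control 14 dpi and 54.4% in hypothyroid 14 dpi. Without the top cell the *Myh4* ratio at 14 dpi was 0.160, and shares were 88.0% in control and 27.2% in hypothyroid 14 dpi. At 20 or more member UMIs, *Myh4* led 100% of the uninjured hypothyroid cells, 2 of 2. The *Myh8* ratio has no value where control had 0 UMIs. In hypothyroid 14 dpi *Myh8* itself had 0 UMIs in cells gated on the fast troponins and at the gate of 10% of UMIs. The causes of these moves were not tested. Depth limits most the 5 dpi gates and *Myh2*.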
